A study of Mus musculus with 4 samples.

Results

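Classical monocytes with high Ly6c2 were examined in single-cell RNA libraries of the fracture callus, the repair tissue that bridges a broken bone. They were selected on measured UMI counts, as barcodes with at least 200 genes and under 10% mitochondrial UMIs (unique molecular identifiers, 1 per counted RNA molecule). Each member also held at least 2 UMIs of Csf1r, at least 2 of Ly6c2 and at least 1 of Ccr2. At most 1 UMI of C1qa, C1qb and C1qc together was allowed, with fewer than 5 of Arg1, fewer than 3 of Mki67 and Top2a together and fewer than 3 of Siglech. These criteria selected 2000 of 33698 kept barcodes, or 5.94%. The source was male C57BL/6J mice aged 20 months with a tibial fracture, and calluses were harvested 7 days after treatment with a control microgel (control 1 and control 2) or an adenosine-containing microgel (adenosine 1 and adenosine 2). The labels name bone marrow as the tissue, and viable cells had been sorted by propidium iodide after red cell lysis. Nothing in the labels tells whether the 2 libraries of a group were made from different animals. The p-values therefore reflect at most variation among libraries, which may be technical. All 4 values below follow the order control 1, control 2, adenosine 1, adenosine 2, and levels are CPM (UMIs scaled to a common total of 1e6) of the members' summed UMIs in a library.

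Classical monocytes leave the bone marrow through the chemokine receptor Ccr2, enter injured tissue and become macrophages there, or lose Ly6c2 and become patrolling nonclassical monocytes. Their survival and differentiation depend on Csf1r, the receptor of colony-stimulating factor 1. Extracellular adenosine is made from released nucleotides by the surface enzymes Entpd1 and Nt5e and acts on 4 receptors, of which Adora2a and Adora2b raise cyclic AMP in myeloid cells. In bone, monocytes of this lineage can also give rise to osteoclasts, the cells that resorb bone.

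The members numbered 759, 217, 394 and 630. Their median depth was 9696, 10886, 10890.0 and 10859.5 UMIs, and their summed counts were 7899997, 2446023, 4602567 and 7308163 UMIs, so control 2 was the shallowest sum. A limit of 3 counts corresponds to 0.380, 1.23, 0.652 and 0.410 CPM in these sums. Scrublet-marked doublets, kept in the main analysis, made up 12.4, 7.37, 12.4 and 11.0% of the members. Pairs of libraries shared between 13 and 28 barcode sequences among all barcodes and at most 1 among the members. Droplet counts hold free RNA, and the intervals below cover counting error only.

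The genes of the selecting criteria are given as levels without a test. Ly6c2, a surface antigen of inflammatory monocytes, measured 971, 905, 908 and 1676 CPM, with a median of 7, 7, 7.5 and 16 UMIs per member. Ccr2 measured 1519, 1901, 1701 and 1546 CPM, and Csf1r 451, 413, 372 and 392 CPM. Ly6c2 was highest in adenosine 2, whereas Csf1r differed little among the libraries. Of the members, 110, 19, 61 and 103 carried a UMI of Mki67 or Top2a, which mark dividing cells, and 5, 17, 4 and 3 a UMI of Arg1.

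The label was checked on Vcan and F13a1, which the criteria did not use. F13a1, the A subunit of coagulation factor XIII, measured 1520.2, 1272, 2174 and 1276 CPM and was detected in 95.7, 95.4, 98.2 and 90.2% of the members. After each cell was thinned to 2000 UMIs, it was found in 80.6, 74.7, 92.9 and 68.4% of members against 3.99, 0, 3.26 and 2.53% of B cells. Median unthinned depths of the B cells were 4729.5, 4018, 4880.5 and 4050.0 UMIs. Vcan encodes versican, a matrix proteoglycan of classical monocytes. It measured 459.7, 803, 1029.9 and 271 CPM, and after thinning it was found in 43.5, 58.5, 70.1 and 26.5% of members against 1.14, 0.834, 1.10 and 0.229% of neutrophils. In every library F13a1 was found in far more members than B cells and Vcan in far more members than neutrophils. These markers set the members apart less from other Csf1r cells. In Arg1-high Csf1r cells, with at least 5 Arg1 UMIs (7, 222, 26 and 8 cells), F13a1 measured 1432, 1496, 1880 and 1172 CPM, above the members in control 2, and Vcan 342, 615, 202 and 156 CPM. In nonclassical monocytes, described below, F13a1 measured 419, 583, 872 and 37.2 CPM and Vcan 127, 347, 340 and 3.38 CPM, each below the members. Barcodes just inside the Ly6c2 threshold, with exactly 2 UMIs, held a Vcan UMI in 60.2, 73.8, 83.7 and 38.7% of 88, 42, 49 and 31 cells. Barcodes that met all other criteria but had exactly 1 Ly6c2 UMI held it in 38.8, 65.7, 41.9 and 23.7% of 103, 67, 43 and 38 cells. For F13a1 the shares were 90.9, 83.3, 93.9 and 74.2% inside and 77.7, 79.1, 65.1 and 55.3% outside.

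Classical monocytes were not more or less frequent in one treatment group beyond the spread between libraries. They made up 8.05% (7.52 to 8.62), 3.27% (2.87 to 3.72), 4.45% (4.04 to 4.90), 7.19% (6.66 to 7.74) of kept barcodes, with 95% Wilson intervals in parentheses. The mean was 5.82% (SD 1.94, n = 2) with adenosine and 5.66% (SD 3.38, n = 2) with control microgel, and an exact two-sided permutation test gave p = 1, where the smallest p that 2 against 2 libraries allow is 0.333. Control 1 and adenosine 2 were the high libraries, so the groups overlapped. Of the kept barcodes with at least 2 Csf1r UMIs, the members were 50.5% (48.0 to 53.1), 20.2% (17.9 to 22.7), 39.3% (36.3 to 42.3), 53.7% (50.8 to 56.5), lowest in control 2. When the criteria were applied to barcodes thinned to 2000 UMIs, the shares were 1.03% (0.826 to 1.27), 0.388% (0.259 to 0.582), 0.511% (0.371 to 0.704), 0.973% (0.775 to 1.22).

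**Figure D1:**
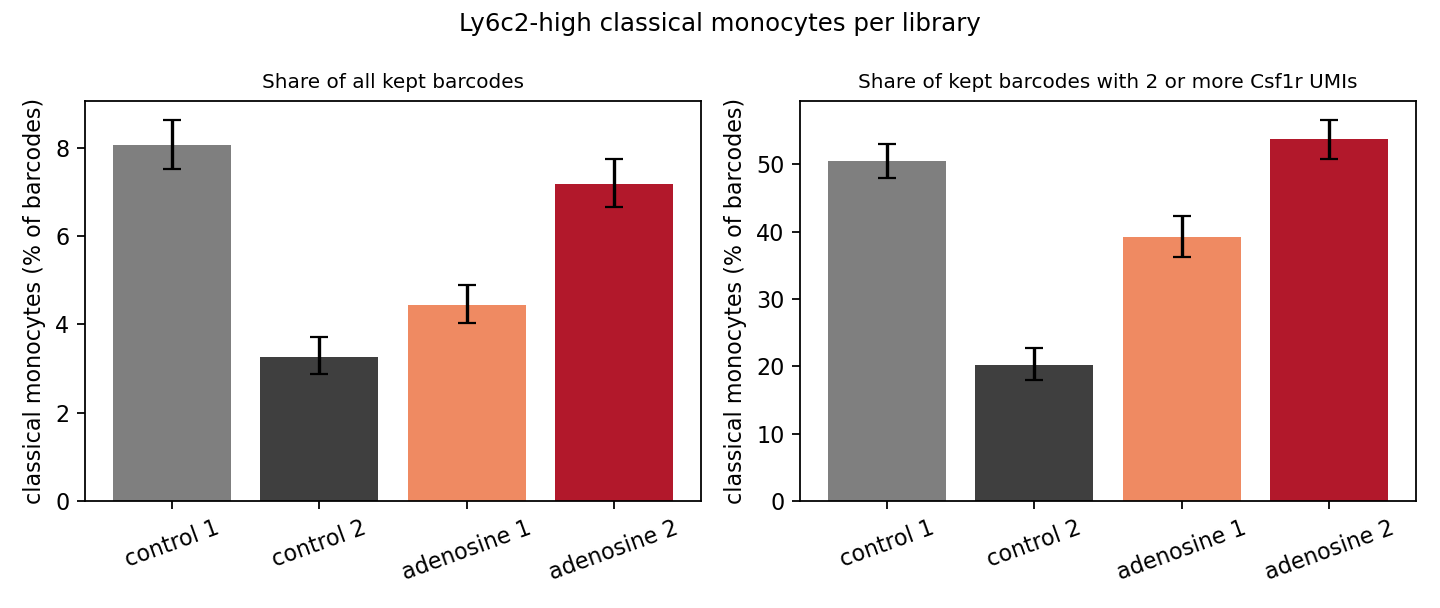
Share of barcodes that met the criteria, in percent (y axis), for each library (x axis), of all kept barcodes (left) and of those with at least 2 Csf1r UMIs (right); error bars are 95% Wilson intervals. Control 2 holds the lowest share on both sides, and the 2 adenosine libraries lie between the 2 control libraries on the left.

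Between treatments, no gene of the members passed an adjusted p of 0.05 in the edgeR quasi-likelihood test of the summed counts. Of 11343 genes tested 0 were called (0%), 219 had an unadjusted p under 0.05, and DESeq2 called 0 as well, with 227 unadjusted. The biological coefficient of variation between libraries was 0.303. In simulated data with a coefficient of variation of 0.3, the same test found 3% of genes changed 2-fold and 61% of those changed 4-fold, so changes of these sizes could go uncalled. The 2 adenosine libraries lay outside the range of the 2 control libraries for 23.1% of genes tested, above it for 15.0% and below it for 8.08%. Calls depended on the filter and on single libraries. With every gene of at least 1 count kept, edgeR called 221 of 18714 genes, 74 higher and 147 lower with adenosine. The smallest adjusted p of that unfiltered edgeR fit was 6.4e-45. Values that small do not measure the spread between 2 libraries per group. Calls without the filter are given below only to show how far results depended on it. Leaving out 1 library gave 59 calls without control 1, 5 without control 2, 53 without adenosine 1 and 30 without adenosine 2. The genes below are therefore described by their levels, and in the filtered fit of all 4 libraries no list had a member called between treatments.

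Chil3, a secreted chitinase-like protein of classical monocytes and neutrophils, measured 466, 358, 1600.2 and 851 CPM. Both adenosine libraries were above both control libraries, with a log2 fold change of 1.46 (SE 0.37) and an adjusted p of 1.00 in edgeR. After thinning, a Chil3 UMI was found in 44.4, 33.6, 73.6 and 53.3% of members (71.8, 63.1, 85.8 and 77.3% before thinning) and in 7.18, 0, 9.78 and 11.6% of B cells. The iron carrier transferrin, encoded by Trf, was the gene with the lowest unadjusted p among those lower with adenosine. Trf measured 177, 178, 68.9 and 78.3 CPM, and its log2 fold change was -1.36 (SE 0.27), with an adjusted p of 1.00. The 2 control libraries were nearly equal and lay above both adenosine libraries. Without the filter on low counts both genes were called in edgeR, Chil3 at 1.47 (adjusted p = 0.0139) and Trf at -1.34 (adjusted p = 0.00759). With the filter, neither was called when any 1 library was left out.

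Other genes of lowest unadjusted p showed the same separation of the groups. Kynu, a kynurenine pathway enzyme, measured 33.0, 24.1, 75.0 and 57.7 CPM, and Zc3h12c 11.1, 9.81, 24.6 and 37.2 CPM, both higher in the adenosine libraries. Ube2c, a ubiquitin-conjugating enzyme of mitosis, measured 15.3, 9.40, 44.3 and 31.1 CPM. Pecam1, an adhesion molecule of leukocytes and endothelium, measured 20, 7.77, 35.2 and 59.5 CPM, while each of the other 4 endothelial markers was at most 1.39 CPM. On the lower side, Maf, a transcription factor of macrophages, measured 65.4, 126, 42.2 and 26.3 CPM. Stat4, a signal transducer of cytokine receptors, measured 52.8, 34.3, 20.6 and 19.8 CPM. Ninj1, a membrane protein of plasma membrane rupture, measured 124, 190.1, 69.3 and 70.9 CPM, and the cyclin-dependent kinase gene Cdk14 137, 226, 62.1 and 84.4 CPM. Log2 fold changes of the 16 genes named by lowest p ran from -1.61 (Maf) to 1.67 (Pecam1), and the adjusted p was 1.00 for each. Without the filter Maf, Pecam1, Cdk14, Ninj1, Ube2c and Zc3h12c were called, with adjusted p from 5.6e-04 (Maf) to 0.0185 (Ninj1).

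**Figure D2:**
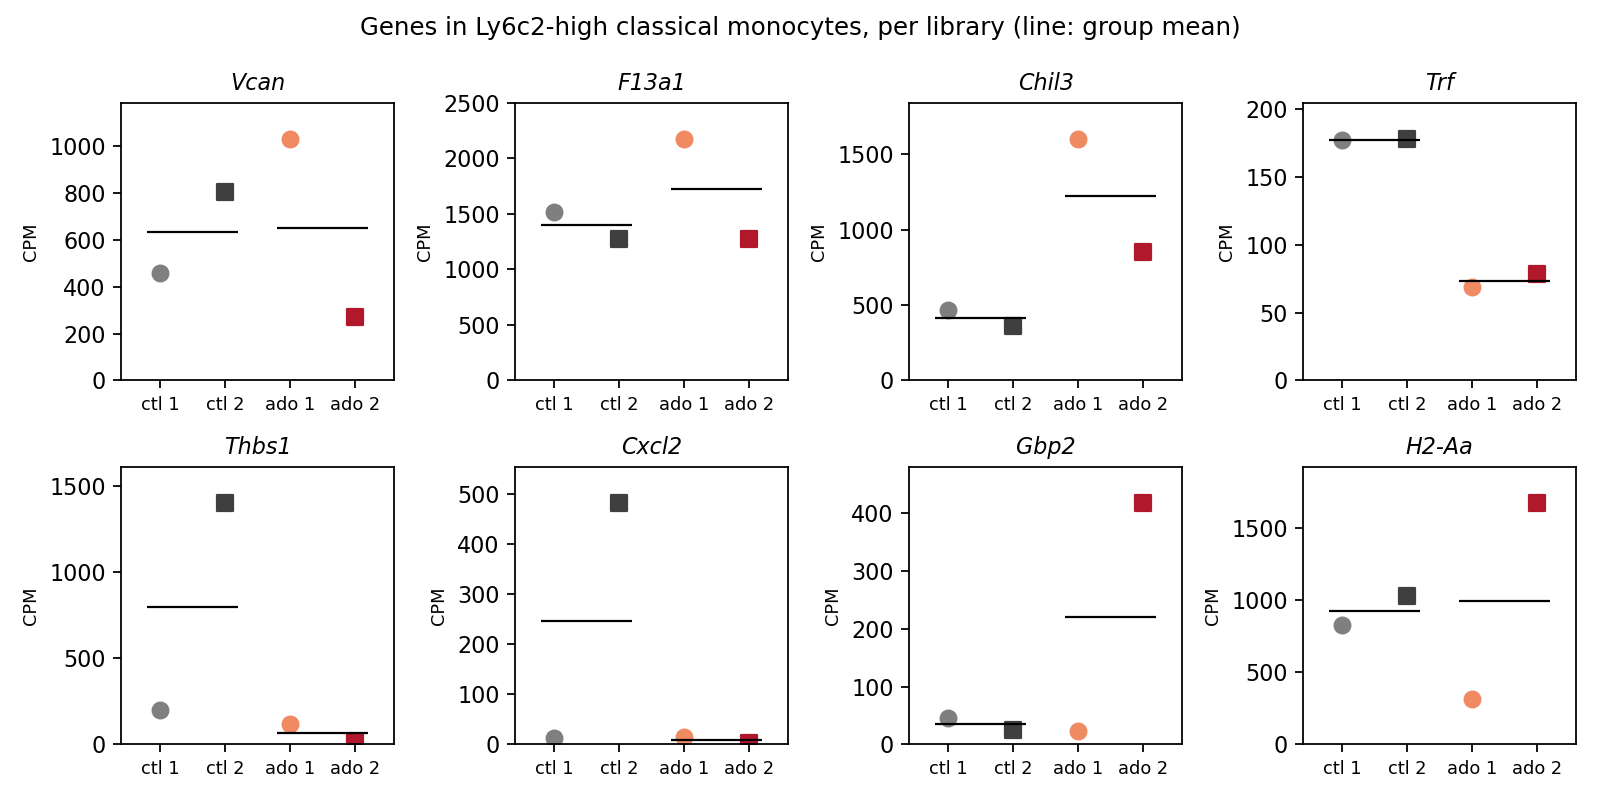
CPM (y axis) of 8 genes in the members of each library (x axis; ctl, control; ado, adenosine), with a line at each group's mean. Chil3 lies higher and Trf lower in both adenosine libraries, Thbs1 and Cxcl2 are high in control 2 alone, and Gbp2 and H2-Aa are highest in adenosine 2 and lowest in adenosine 1.

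The 15 classical monocyte markers had a median log2 fold change of -0.12, against -0.0056 over all genes tested. In the adenosine libraries, 3 were above and 1 was below both control libraries, against 15.0% and 8.08% of all genes tested, so these counts were near the background. Besides Chil3, the glutathione transferase Mgst1 was among those above, at 425, 378, 454 and 633 CPM. Msrb1, a methionine sulfoxide reductase, was the 1 below at 1077, 1037, 954 and 1003 CPM. Fibronectin, encoded by Fn1, measured 1749.8, 1475, 2085 and 745 CPM and was lowest in adenosine 2. Plac8 measured 2485, 2919.8, 1615 and 5075 CPM, and lysozyme Lyz2 14287, 16351, 8799 and 17853 CPM. For both genes the 2 adenosine libraries held the lowest and the highest level, so the groups overlapped.

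Of the adenosine receptors, Adora2b had the highest counts. It measured 21.1, 42.1, 11.5 and 19.7 CPM, with a log2 fold change of -1.08 (SE 0.49). Both adenosine libraries were below both control libraries, the nearest pair being adenosine 2 and control 1. A thinned Adora2b UMI was found in 2.77, 8.29, 3.05 and 3.65% of members (19.6, 30.9, 10.7 and 16.0% unthinned) and in 0 B cells of any library. The thinned shares of Adora2b overlapped between the groups and were lowest in control 1. Adora2a measured 3.04, 3.68, 1.09 and 4.65 CPM, Adora3 2.53, 13.9, 7.60 and 3.97 CPM, and Adora1 had 0 UMIs in each library. Nt5e, which makes adenosine from AMP, measured 2.91, 29.0, 5.21 and 2.60 CPM and was highest in control 2. Entpd1, which acts on ATP and ADP before Nt5e, measured 80.9, 110.0, 75.6 and 88.0 CPM. The adenosine kinase Adk measured 61.1, 39.7, 65.8 and 42.3 CPM, the purine nucleoside phosphorylase Pnp 209, 284, 148 and 418 CPM, and adenosine deaminase Ada was at most 2.19 CPM. Levels of Entpd1, Adk and Pnp overlapped between the groups.

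Genes known to respond to cyclic AMP gave no call among 16 tested, with a median log2 fold change of -0.50. Control 2 was highest for 8 of the 16, against 25.4% of all genes tested. Crem, a cyclic AMP-responsive transcription factor, measured 14.8, 53.1, 15.2 and 15.1 CPM, and the orphan nuclear receptor Nr4a1 26.6, 39.7, 25.0 and 33.1 CPM. Nr4a3 measured 3.54, 4.09, 0.869 and 1.23 CPM, lower in both adenosine libraries. Phosphodiesterases degrade cyclic AMP. Pde4b measured 131, 88.7, 114 and 142 CPM, Pde7b 327, 197, 107 and 314 CPM and Pde3b 127, 79.3, 79.7 and 48.8 CPM, with overlapping groups. Thrombospondin 1, encoded by Thbs1, measured 197, 1401, 117 and 11.5 CPM. Without the filter edgeR called it at -3.84 (adjusted p = 4.6e-18), and without adenosine 1 its log2 fold change was -6.19. That p-value does not measure the spread between the control libraries, at 197 and 1401 CPM. Thbs1 was highest in control 2 and lowest in adenosine 2. After thinning it was found in 21.6, 46.1, 12.4 and 1.59% of members and 28.1, 46.9, 11.0 and 5.69% of neutrophils. In neutrophils too the share was highest in control 2 and lowest in adenosine 2.

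Control 2 stood apart from the other 3 libraries in inflammatory and maturation genes. Its members had the highest level for 12 of 18 inflammatory mediators tested, for 13 of 15 macrophage maturation genes, for 13 of 14 genes of hypoxia and glycolysis, for 13 of 16 pattern, Fc and scavenger receptors and for 6 of 7 growth factors. Over all genes tested, control 2 was highest for 25.4%. The summed level of the inflammatory mediators was 1052, 2946, 896 and 1045 CPM. Cxcl2, a neutrophil chemoattractant, measured 13.0, 482, 13.9 and 3.28 CPM, and the monocyte chemoattractant Ccl2 12.9, 250.2, 10.4 and 20.5 CPM. Interleukin 1 beta, encoded by Il1b, measured 92.7, 637, 65.8 and 102 CPM and its antagonist Il1rn 15.2, 98.5, 10.9 and 18.1 CPM. Without the filter edgeR called Cxcl2 and Il1b lower with adenosine, at -5.06 (adjusted p = 7.8e-33) and -2.22 (adjusted p = 2.8e-07). In both genes control 1 lay between the 2 adenosine libraries, so these p-values do not measure the spread between libraries. When control 2 was left out, the log2 fold changes of Cxcl2 and Il1b were -0.68 and -0.13. In each of these 4 genes control 2 was several-fold above control 1, and also above both adenosine libraries.

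The maturation list summed to 3391, 6557, 3685 and 2921 CPM. Osteopontin, encoded by Spp1, measured 6.58, 718, 34.8 and 9.85 CPM, and platelet factor 4, encoded by Pf4, 0.633, 87.9, 5.21 and 0.958 CPM. The mannose receptor Mrc1 measured 25.2, 158, 51.1 and 27.2 CPM, and apolipoprotein E, encoded by Apoe, 1166, 2242, 1163 and 576 CPM. Spp1 and Pf4 were many-fold higher in control 2 than in any other library, whereas Apoe was lowest in adenosine 2. Cd14, the lipopolysaccharide co-receptor, measured 41.6, 448, 25.9 and 40.2 CPM, and the C-type lectins Clec4d and Clec4e 56.6, 444, 50.8 and 35.4 and 56.6, 338, 67.8 and 68.0 CPM. Pattern, Fc and scavenger receptors together measured 990.3, 2919, 1018 and 1075 CPM. The growth factor list gave 940.3, 3087, 1249 and 677 CPM, of which Tgfbi, a matrix protein induced by transforming growth factor beta, was 499, 1336, 819 and 394 CPM. Vegfa, the vascular growth factor, measured 2.41, 24.9, 2.82 and 0.821 CPM. The glucose transporter Slc2a1 measured 17.0, 69.5, 23.9 and 27.6 CPM, and the lactate exporter Slc16a3 42.8, 154, 42.4 and 28.7 CPM. Every one of these genes was highest in control 2.

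The median log2 fold changes of these lists turned on that library. With all 4 libraries the medians were -1.95 for inflammatory mediators, -0.77 for maturation, -0.67 for the receptors, -0.75 for growth factors and -0.48 for hypoxia and glycolysis. Without control 2 they were 0.12, 0.15, 0.06, 0.12 and 0.31, so each changed sign. Control 2 also held 222 Arg1-high Csf1r cells, against 7, 26 and 8 in the other libraries, and 19, 29, 13 and 23 members with 1 C1q UMI. Its median mitochondrial share was the lowest (3.17, 2.37, 3.22 and 2.91%). The part of these in the levels above was not tested.

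**Figure D3:**
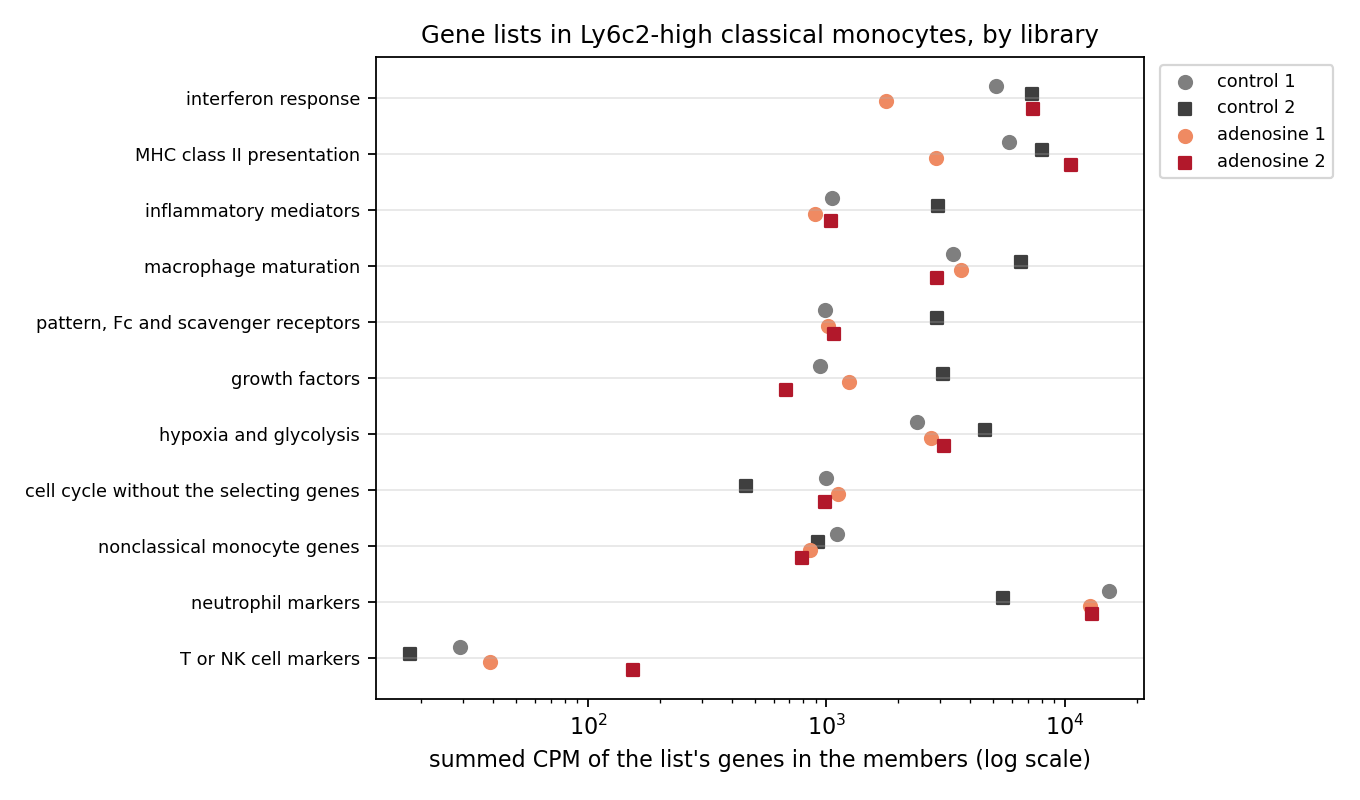
Summed CPM (x axis, log scale) of 11 gene lists (y axis) in the members of each library. Control 2 stands to the right for the inflammatory, maturation, receptor, growth factor and glycolysis lists and to the left for the cell cycle and neutrophil lists, and adenosine 1 stands to the left for the interferon list at 1771 CPM.

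The interferon response separated the 2 adenosine libraries. All 21 genes tested of the list were lowest in adenosine 1, against 17.8% of all genes tested, and 13 were highest in adenosine 2, against 17.3%. The list summed to 5145, 7281, 1771 and 7344 CPM, with a median log2 fold change of -0.27 between treatments. Without adenosine 1 the median was 0.59, and without adenosine 2 it was -2.25. Isg15, a ubiquitin-like modifier, measured 20.9, 54.0, 4.35 and 33.7 CPM, and Ifi27l2a 676, 1341, 94.3 and 929.6 CPM. Gbp2, a guanylate-binding protein, measured 45.7, 24.9, 22.4 and 417 CPM, and the chemokine Cxcl10 36.7, 16.4, 13.0 and 129 CPM. Gbp2 and Cxcl10 were several-fold higher in adenosine 2 than in any other library, whereas Isg15 and Ifi27l2a were highest in control 2. Ifi27l2a was called without adenosine 2 (-3.59, adjusted p = 0.0193). T or NK cell markers in the members summed to 29.0, 18.0, 38.9 and 154 CPM and were also highest in adenosine 2, where 137 of 630 members held a UMI of Cd3d, Cd3e or Cd3g. Their part in the interferon values was not tested.

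The promoters of Isg15 and Gbp2 are shown because these 2 genes marked the contrast between the libraries. They are the 120 bases before the RefSeq transcription start in build GRCm38.p6, 5′ to 3′ on the gene's strand. Capitals mark matches to the core of the interferon-stimulated response element, 2 GAAA blocks a pair of bases apart, searched on both strands.
Isg15 chr4:156200819-156200938 (- strand): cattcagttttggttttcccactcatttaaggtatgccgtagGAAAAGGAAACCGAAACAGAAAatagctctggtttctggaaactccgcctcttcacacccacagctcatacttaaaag
Gbp2 chr3:142620543-142620662 (+ strand): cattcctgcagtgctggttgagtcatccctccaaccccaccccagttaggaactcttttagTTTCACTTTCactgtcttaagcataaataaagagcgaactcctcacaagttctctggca
In the 250 bases before the start, the core was found in 9 of the 16 interferon genes with an entry in the promoter table, against 2.98% of 32851 promoters. Isg15 held 3 overlapping matches on the gene's own strand, and Gbp2 held 1 on the opposite strand. A match describes these letters and not a bound site.

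MHC class II genes, which present peptides to helper T cells, followed a like order. Of 10 genes tested, 9 were lowest in adenosine 1 and 8 were highest in adenosine 2, against 17.8% and 17.3% of all genes tested. The list summed to 5841, 8045, 2892 and 10666 CPM, and its median log2 fold change between treatments was -0.01. H2-Aa, an alpha chain, measured 831, 1028, 314 and 1675 CPM, and the beta chain H2-Eb1 442, 636, 184 and 913 CPM. The invariant chain Cd74 measured 2202, 3107, 843 and 4692 CPM, and Ciita, the master transcriptional coactivator of these genes, 74.2, 49.9, 36.9 and 130.0 CPM. For each of these 4 genes the 2 adenosine libraries held the lowest and the highest level, and the control libraries lay between them. B cells carry class II genes as well, and B cell markers in the members summed to 239, 83.8, 279.6 and 301 CPM, lowest in control 2. The 7 dendritic cell markers summed to 256, 209, 244 and 196 CPM. Of these, Flt3 measured 40.3, 7.77, 43.7 and 13.4 CPM and Cd209a 24.2, 11.9, 3.91 and 11.2 CPM, while Xcr1 was at 1.27, 0, 0.652 and 0.137 CPM and Clec9a at 4.94, 0.409, 0.652 and 6.29 CPM. These named dendritic cell genes were the smaller part of each sum. Tcf4, also a marker of that list, measured 230, 185, 162 and 163 CPM in the class II-high members described below. The part of B cell and dendritic cell markers in the class II values was not tested.

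Class II promoters share an array of short elements, the last of which is the Y box, read by the factor NF-Y. The promoters of 3 list genes follow, again as the 120 bases before the start in GRCm38.p6, with the Y box core TGATTGG in capitals.
H2-Aa chr17:34287824-34287943 (- strand): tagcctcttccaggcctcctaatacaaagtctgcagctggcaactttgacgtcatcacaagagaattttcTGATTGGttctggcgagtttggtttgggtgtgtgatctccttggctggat
H2-Eb1 chr17:34305747-34305866 (+ strand): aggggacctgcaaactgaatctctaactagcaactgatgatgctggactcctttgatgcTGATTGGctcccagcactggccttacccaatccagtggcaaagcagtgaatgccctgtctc
H2-DMb1 chr17:34153071-34153190 (+ strand): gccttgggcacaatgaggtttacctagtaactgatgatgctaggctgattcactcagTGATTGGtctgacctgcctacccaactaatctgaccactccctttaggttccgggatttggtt
The core began 50, 61 and 63 bases before the start. Searched on both strands in 250 bases, it was found in 4 of the 7 list genes with an entry in the table, the other being H2-DMb2, against 7.23% of 32851 promoters.

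Cell cycle genes other than the selecting Mki67 and Top2a were lowest in control 2 for 22 of 23 tested, where 46.2% of all genes tested were lowest in control 2. The list summed to 995, 460.3, 1114 and 983 CPM. The selection had left out barcodes with at least 3 UMIs of Mki67 and Top2a together, so the list describes only what remained below that limit. Barcodes left out on that criterion alone numbered 234, 13, 264 and 296. In 11 of the 23, both adenosine libraries were above both control libraries, against 15.0% of all genes tested, and the median log2 fold change was 0.72, or 0.22 without control 2. The replication helicase subunit Mcm6 measured 14.8, 4.91, 25.2 and 21.2 CPM, and cyclin B2, encoded by Ccnb2, 19.0, 2.04, 27.6 and 24.1 CPM. Stathmin, encoded by Stmn1, measured 54.1, 12.7, 61.1 and 65.3 CPM, and the chromatin protein Hmgb2 664, 326, 702 and 612 CPM. Control 1 was close to the adenosine libraries in Hmgb2 and Stmn1. Granulocyte-monocyte progenitor markers summed to 287, 92.0, 594 and 334 CPM. As in the cell cycle list, the sum was lowest in control 2 and highest in adenosine 1. Adenosine 2 was above control 1 in the progenitor sum but not in the cell cycle sum. The progenitor markers were lowest in control 2 for 7 of 7. Of these, the granule protease Elane measured 55.7, 2.45, 118 and 73.2 CPM and myeloperoxidase Mpo 45.9, 0.409, 147 and 38.6 CPM. Without the filter edgeR called Elane (1.59, adjusted p = 5.4e-04) and Mpo (1.82, adjusted p = 3.5e-05), and with the filter neither was called. Mpo overlapped between the groups, as adenosine 2 lay below control 1. The part of progenitor markers in the cell cycle values was not tested.

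Markers of other cells were present in the members at levels that differed by library. Neutrophil markers summed to 15307, 5518, 12775 and 12967 CPM, and 11 of 12 were lowest in control 2, against 46.2% of all genes tested. Erythroid markers summed to 10.9, 2.04, 47.6 and 6.16 CPM and basophil or mast cell markers to 22.5, 0, 4.35 and 9.72 CPM. Mesenchymal markers gave 671, 3.27, 6.95 and 3.15 CPM. In control 1, 1 member held 4542 of the 4672 UMIs of Col1a1 and Col1a2. Any UMI of Cd3d, Cd3e, Cd3g, Cd79a, Cd79b, Col1a1 or Col1a2 was found in 28.5, 11.5, 23.4 and 37.0% of members. Without these members 0 of 10524 genes were called between treatments, and 208 had an unadjusted p under 0.05.

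Genes of the nonclassical fate had a median log2 fold change of -0.46 over 11 tested, and 4 were lower in both adenosine libraries, against 8.08% of all genes tested. The fractalkine receptor Cx3cr1 measured 217, 157, 119 and 135 CPM, and Treml4 21.8, 22.1, 12.2 and 11.9 CPM. The angiotensin-converting enzyme Ace measured 14.1, 11.0, 8.26 and 10.9 CPM and apolipoprotein Apoc2 199, 339.7, 168 and 106 CPM. In these 4 genes the control libraries were higher, though none passed the test. Ace barely separated the groups, at 11.0 CPM in control 2 and 10.9 CPM in adenosine 2. Among 16 transcription factors tested, Irf8, which drives monocyte development, measured 182, 152, 246 and 279 CPM, and Klf4 99.1, 85.9, 149 and 122 CPM. Both were higher in the 2 adenosine libraries, as the only 2 of the 16, while 3 were lower in both. Of all genes tested, 15.0% were higher and 8.08% lower in both. The median log2 fold change of the 16 was -0.15. The myeloid factor Spi1 measured 475, 643, 479.9 and 605 CPM and overlapped between groups. Of 15 trafficking receptors and integrins tested, the hyaluronan receptor Cd44 measured 532, 657, 486 and 377 CPM and the integrin Itgb1 172, 173, 131 and 140.3 CPM, both lower in the adenosine libraries. The chemokine receptor Ccr1 measured 62.2, 306, 89.3 and 42.7 CPM and was highest in control 2.

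The genes of osteoclast differentiation summed to 269, 212, 321 and 168 CPM. That sum includes the protease Mmp9, which is also among the neutrophil markers. Tnfrsf11a, the receptor of the osteoclast factor RANKL, measured 33.8, 118, 41.5 and 36.4 CPM, and the transcription factor Nfatc1 89.0, 54.0, 103 and 72.4 CPM. The osteoclast protease cathepsin K, encoded by Ctsk, measured 1.27, 3.68, 26.9 and 1.09 CPM, highest in adenosine 1, and the fusion gene Dcstamp was at most 2.82 CPM. Among the other genes of alternative activation, Retnla had 0 UMIs in each library, and the lectin Clec10a measured 47.7, 25.8, 24.6 and 33.4 CPM. In the iron list, ferritin heavy chain Fth1 measured 2233, 7484, 2203 and 3180.1 CPM and light chain Ftl1 2882, 4985, 2330.2 and 3377 CPM, both highest in control 2. The iron transporter Slc11a1 measured 46.1, 91.2, 32.2 and 26.1 CPM and was lower in both adenosine libraries. The mitochondrially encoded genes summed to 31921, 24283, 32324 and 29875 CPM. Of the stress response genes, Fos measured 155, 574, 207 and 194 CPM and Jun 22.8, 199.5, 38.0 and 63.1 CPM, both highest in control 2, while Hspa8 was 919.9, 1170.1, 1107 and 1430.5 CPM with overlapping groups.

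Whether the treatment difference in classical monocytes differed from that in other cells was tested as an interaction with the library as a block. Nonclassical monocytes were Csf1r-positive barcodes without Ly6c2 that held at least 2 UMIs of Ace, Treml4, Cd300e and Adgre4 together, and they numbered 150, 38, 42 and 45. Their Ccr2 level was 1149, 1307, 1382 and 771 CPM, below the members in each library but far from absent. Cd209a measured 151, 0, 163 and 0 CPM in them. The name therefore rests on the selecting genes, and other Csf1r cells without Ly6c2 may be included. Of 10126 genes tested 0 were called (0%), although 429 had an unadjusted p below 0.05, and the smallest adjusted p in edgeR was 0.0819. The transcription factor Ebf1 of B cells had that p, with 20.9, 0, 37.2 and 35.6 CPM in classical and 76.3, 0, 7.09 and 6.77 CPM in nonclassical monocytes. Cdk14 measured 137, 226, 62.1 and 84.4 CPM in classical and 401, 393, 499.7 and 535 CPM in nonclassical monocytes, an interaction of -1.59 (SE 0.27, adjusted p = 0.148). Its level was lower with adenosine in classical monocytes and higher with adenosine in nonclassical ones. The lipid-sensing receptor Pparg had an interaction of -1.75 (SE 0.43, adjusted p = 0.706). Leaving out control 1 gave 59 calls, control 2 gave 21, adenosine 1 gave 1 and adenosine 2 gave 0.

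Against neutrophils (4922, 2202, 4396 and 3466 cells), 0 of 12861 genes were called (0%), and 183 had an unadjusted p under 0.05. Olr1, a scavenger receptor of oxidized lipoproteins, had 6.08, 35.2, 16.7 and 11.4 CPM in classical monocytes and 25.0, 128, 19.6 and 15.4 CPM in neutrophils, an interaction of 1.79 (SE 0.41, adjusted p = 1.00). Tlr2 had 43.2, 81.4, 51.1 and 65.7 and 45.6, 97.8, 24.7 and 32.3 CPM and an interaction of 1.37 (SE 0.41, adjusted p = 1.00). In both genes control 2 was the high library of either cell type. Without control 1, 1234 genes were called, against 5, 3 and 2 when control 2, adenosine 1 or adenosine 2 was left out.

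Members also varied among themselves. Each was thinned to 2000 UMIs, and those with at least 2 Chil3 UMIs were compared, within each library, with those that had 0. Chil3-high members made up 26.1, 19.4, 61.7 and 37.9% of the members, with Wilson intervals from 23.1, 14.7, 56.8 and 34.2% to 29.3, 25.1, 66.3 and 41.8% respectively. Both adenosine libraries were above both control libraries. The state is a range and not a type: 139, 31, 47 and 97 members had exactly 1 UMI and were left out, and 89, 15, 49 and 71 had exactly 2. Of 5953 genes tested with the library as a block, 126 (2.12%) were called, 64 (1.08%) higher and 62 (1.04%) lower in Chil3-high members. Leaving out 1 library at a time gave 46 (without control 1), 119 (without control 2), 103 (without adenosine 1) and 50 (without adenosine 2) calls. DESeq2 called 19, all of them among the 126. The coefficient of variation in the edgeR fit was 0.053. Its smallest p-values do not measure how far a difference varied among libraries.

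Genes of the classical monocyte program were higher in Chil3-high members, 7 of 14 tested and none lower. Haptoglobin Hp measured 624, 1059.5, 591 and 649 CPM in Chil3-high and 392, 747, 370.2 and 423 CPM in Chil3-zero members, a log2 fold change of 0.63 (SE 0.08, adjusted p = 1.5e-06) in edgeR. Vcan measured 576, 940.5, 1171 and 312 against 378, 771, 774 and 202 CPM, a log2 fold change of 0.56 (SE 0.09, adjusted p = 3.2e-05). Msrb1 differed by 0.52 (SE 0.07, adjusted p = 5.2e-06), Mgst1 by 0.46 (SE 0.09, adjusted p = 9.4e-04) and Ifitm6 by 0.40 (SE 0.08, adjusted p = 0.00205). All 5 genes were higher in 4 of 4 libraries. The guanine deaminase gene Gda and Fn1 were the other 2 called. Without marked doublets Hp differed by 0.56 and Vcan by 0.59, both called, while Ifitm6 differed by 0.24 and was not. In DESeq2 Hp was called (adjusted p = 0.00781) and the other 6 were not, with adjusted p from 0.0506 to 1.00.

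Neutrophil genes were also higher in the sum of Chil3-high members, 7 of 10 tested. Camp, a cathelicidin, measured 1742, 35.7, 790.1 and 1454 CPM in Chil3-high and 405, 34.7, 96.2 and 491 CPM in Chil3-zero members, a log2 fold change of 1.96 (SE 0.11, adjusted p = 1.3e-16). In control 2 the 2 states were nearly equal in Camp, so its p-value does not measure how far the difference varied among libraries. Ngp, another granule gene, measured 864, 11.9, 591 and 891 against 269, 31.2, 106 and 299 CPM. In control 2 Ngp was lower in Chil3-high members, and lactoferrin Ltf had 0 UMIs in both states there. A UMI of Camp, Ngp or Ltf was found in 55.1, 9.52, 41.2 and 59.4% of Chil3-high and 58.3, 9.03, 34.6 and 51.7% of Chil3-zero members. These shares were closer within a library than the summed levels of Camp in control 1, adenosine 1 and adenosine 2, whereas in control 2 both were close. Marked doublets were 19.2, 2.38, 15.6 and 12.1% of Chil3-high and 9.95, 9.03, 6.73 and 10.2% of Chil3-zero members. Without marked doublets Camp differed by 0.42 (adjusted p = 0.0585), Ngp by 0.10 (0.928), Ltf by 0.35 (0.709), Lcn2 by 0.34 (0.304) and S100a8 by 0.18 (0.149), and none of the 5 was called. S100a9 went from 0.82 to -0.11 (adjusted p = 0.633). In all, 111 genes were called without marked doublets, 94 of them among the 126.

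Lower in Chil3-high members were 7 of 8 class II presentation genes, with a list median of -1.35. H2-Aa measured 207, 690.5, 67.9 and 719.7 against 1075, 1260.4, 736 and 2723 CPM, a log2 fold change of -2.06 (SE 0.13, adjusted p = 2.4e-15). H2-Eb1 differed by -2.27 (SE 0.14, adjusted p = 1.3e-15) and Cd74 by -1.61 (SE 0.11, adjusted p = 1.8e-14), each lower in 4 of 4 libraries. Without marked doublets H2-Aa differed by -2.05. The chemokine Ccl5 measured 0, 0, 4.12 and 136 against 45.0, 72.9, 274 and 573 CPM, with T or NK cell markers at 5.05, 0, 12.3 and 43.9 against 21.3, 27.8, 19.2 and 139 CPM. Mrc1 measured 7.58, 47.6, 12.3 and 2.09 against 35.5, 170.1, 96.2 and 32.3 CPM, and the lectin Clec10a differed by -1.58 (SE 0.32, adjusted p = 0.00205). Progenitor proteases were lower too, Elane by -1.94 (SE 0.28, adjusted p = 9.7e-06) and Prtn3 by -1.02 (SE 0.20, adjusted p = 0.00103), although Prtn3 was higher in Chil3-high members of control 2. Neither the 10 cyclic AMP response genes tested nor the 12 genes of hypoxia and glycolysis gave a call.

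**Figure D4:**
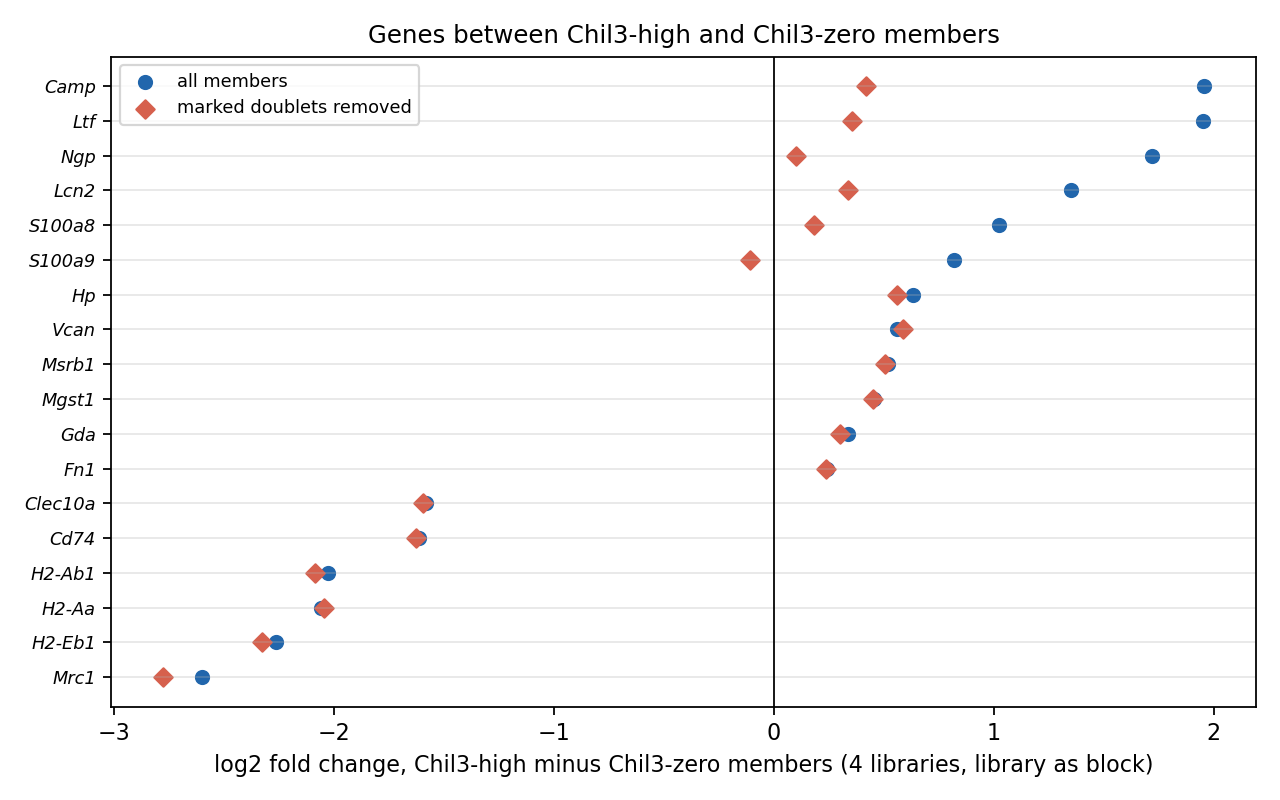
Log2 fold change (x axis) of 18 genes (y axis) between Chil3-high and Chil3-zero members, with all members (circles) and with marked doublets removed (diamonds); positive values are higher in Chil3-high members. The 6 neutrophil genes at the top move toward 0 without doublets, S100a9 past it, while the plotted classical monocyte genes, which do not include Ifitm6, and the class II genes move little.

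A second split used the sum of H2-Aa, H2-Ab1 and H2-Eb1, at least 2 thinned UMIs against 0. MHC class II-high members made up 22.9, 28.6, 9.39 and 49.5% of the members, with Wilson intervals from 20.1, 23.0, 6.89 and 45.6% to 26.0, 34.9, 12.7 and 53.4%. The 2 adenosine libraries held the lowest and the highest share. Exactly 1 UMI was found in 94, 25, 25 and 70 members, which were left out, and exactly 2 in 28, 10, 8 and 37. Of 5848 genes tested 214 (3.66%) were called, 126 (2.15%) higher and 88 (1.50%) lower in class II-high members. Calls numbered between 103 (without adenosine 1) and 256 (without control 2) when a library was left out, and 122 in members without T cell, B cell or collagen UMIs, 115 of them among the 214. DESeq2 called 63, all among the 214. The coefficient of variation in the edgeR fit was 0.0824, and its smallest p-values have the same limit as in the Chil3 split. Without marked doublets 199 genes were called, 177 of them among the 214.

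Class II-high members were higher in the other genes of presentation, 5 of 5 tested. B cell markers were also higher in class II-high members of 4 of 4 libraries, at 394, 113, 284 and 359 against 191, 92.3, 229 and 196 CPM. Cd74 measured 8287, 9895, 6568 and 8861 CPM in class II-high and 296, 462, 96.4 and 546 CPM in class II-zero members, a log2 fold change of 4.74 (SE 0.16, adjusted p = 1.3e-18). Ciita measured 201, 185, 149 and 247 against 21.4, 11.5, 12.05 and 46.4 CPM, a log2 fold change of 3.03 (SE 0.22, adjusted p = 1.4e-10). H2-DMa and H2-DMb1, which load peptides, differed by 1.58 (SE 0.14, adjusted p = 3.9e-09) and 2.76 (SE 0.18, adjusted p = 7.9e-12). The phagocyte genes Apoe and Mrc1 were higher by 1.21 (SE 0.09, adjusted p = 3.7e-10) and 3.03 (SE 0.29, adjusted p = 2.7e-08), and the scavenging chemokine Cxcl16 by 2.96 (SE 0.39, adjusted p = 8.6e-06). Il1b was higher by 1.29 (SE 0.21, adjusted p = 2.6e-04), the inhibitory Fc receptor Fcgr2b by 0.99 (SE 0.15, adjusted p = 1.0e-04) and Clec10a by 1.69 (SE 0.34, adjusted p = 0.00292). Flt3, a cytokine receptor of dendritic cells, was higher by 1.57 (SE 0.38, adjusted p = 0.0141), or 0.44 (adjusted p = 0.591) when members were thinned to 3000 UMIs. Dendritic cell markers summed to 365, 290.3, 378 and 205 against 187, 212, 224 and 143 CPM in class II-high against class II-zero members. Of these markers, Cd209a measured 51.7, 64.5, 40.5 and 14.4 against 3.05, 0, 1.51 and 2.02 CPM. Each of these genes was higher in 4 of 4 libraries. Dpp4, which binds adenosine deaminase in humans, was the 1 gene of the adenosine list called, at 1.86 (SE 0.27, adjusted p = 4.9e-05).

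The classical monocyte program was lower in class II-high members, 10 of 15 genes tested, and 2 were higher. Vcan measured 138, 573, 581 and 173 against 562, 958, 1113 and 371 CPM, a log2 fold change of -1.19 (SE 0.14, adjusted p = 1.6e-06). F13a1 differed by -0.77 (SE 0.09, adjusted p = 1.2e-06), Fn1 by -0.78 (SE 0.09, adjusted p = 6.8e-07) and Chil3 by -1.15 (SE 0.12, adjusted p = 8.9e-08). Each of these was lower in 4 of 4 libraries. The protease Ctsc and Ms4a4c were the 2 higher genes, by 0.50 (SE 0.10, adjusted p = 0.00265) and 0.43 (SE 0.11, adjusted p = 0.0240). Elane differed by -1.81 (SE 0.32, adjusted p = 6.8e-04), or -0.79 (adjusted p = 0.131) when thinned to 3000 UMIs. Prtn3 differed by -1.64 (SE 0.22, adjusted p = 9.8e-06), and by -0.87 (adjusted p = 0.125) in members without T cell, B cell or collagen UMIs. Hmgb2 differed by -0.73 (SE 0.11, adjusted p = 7.0e-05). The leukocyte protease inhibitor Slpi measured 155, 234, 81.1 and 165 against 350.3, 719, 306 and 371 CPM. Of 10 neutrophil markers tested none was called.

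Among Chil3-high members the share that was class II-high was 12.6% (8.70 to 18.0), 11.9% (5.19 to 25.0), 3.70% (1.96 to 6.89), 36.4% (30.6 to 42.7). Among Chil3-zero members it was 28.2% (24.1 to 32.7), 36.1% (28.7 to 44.2), 20.2% (13.6 to 28.9), 58.8% (53.1 to 64.3). The share was lower in Chil3-high members of all 4 libraries, with the highest values of both kinds in adenosine 2. Chil3 and class II genes chose these states, so the shares are a description.

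**Figure D5:**
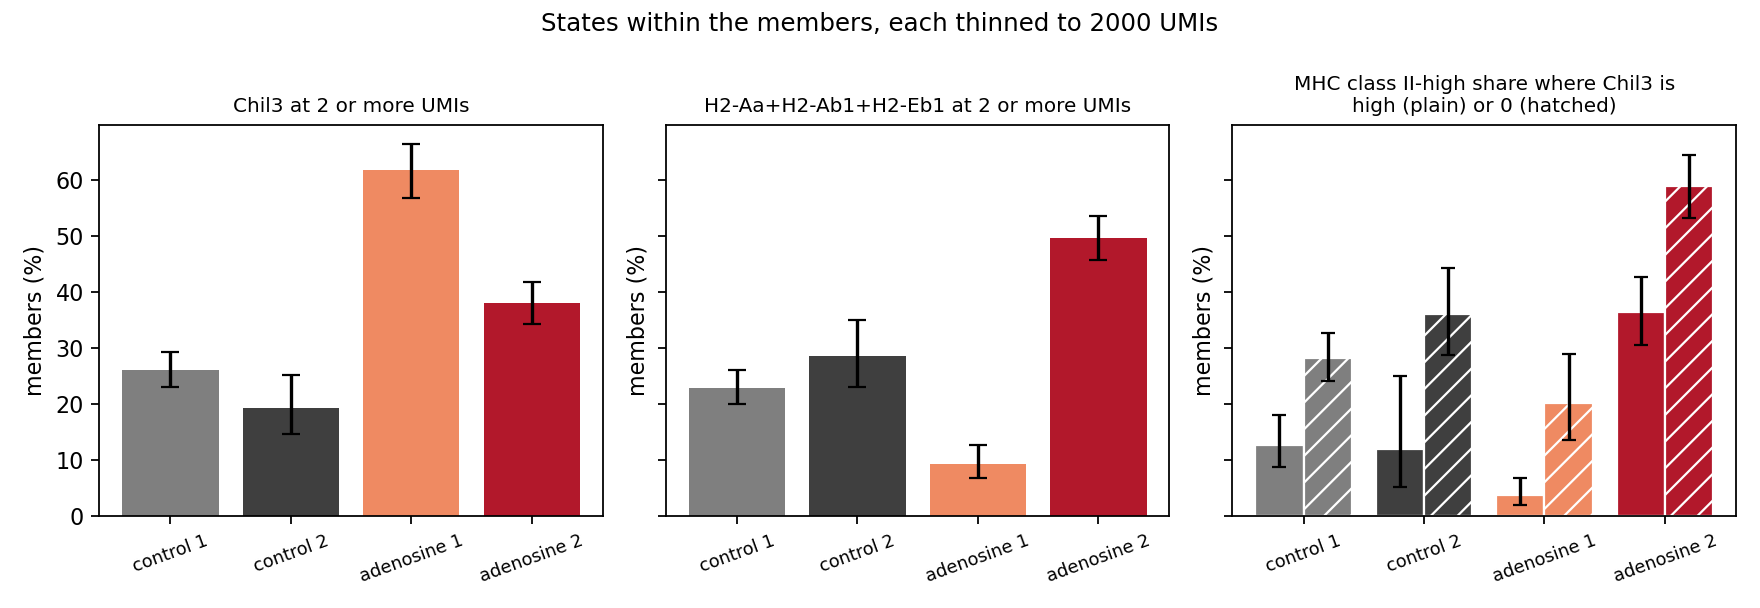
Percent of members (y axis) per library (x axis) that were Chil3-high (left) or MHC class II-high (middle), and class II-high among Chil3-high (plain) and Chil3-zero (hatched) members (right); error bars are 95% Wilson intervals. Chil3-high members reach 61.7% in adenosine 1, where class II-high members are at 9.39%, and the hatched bar exceeds the plain bar in all 4 libraries.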

How the data were processed

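Single-cell RNA was measured in 4 libraries, 2 with control and 2 with adenosine microgel. Per the submitters' processing notes the authors ran bcl2fastq and Cell Ranger 7.0.0 on mm10. Which annotation was used, and whether intronic reads were counted, is not given in the sources used here. Per the file headers the deposited matrices hold whole-number UMI counts of 32285 genes per barcode. Barcodes under 200 genes or at 10% or more mitochondrial UMIs were removed (1576 of 35274). Doublets were marked with Scrublet in scanpy 1.11.5 at 0.8% per 1000 barcodes and kept in the main analysis. The members and gene lists were chosen with earlier results of these data known.

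UMIs were summed per library over the members and tested with the edgeR 4.0.16 quasi-likelihood test in R 4.3.3 (filterByExpr, TMM scaling), with two-sided p-values adjusted by Benjamini and Hochberg over all genes tested, the 10 selecting genes being left out of the counts. DESeq2 1.42.0 was an alternative. Splits within members used counts thinned to 2000 UMIs per cell (seed 7) and the library as a block, without Chil3 or the 3 class II genes that set them. Named genes were those past the threshold with the largest fold change (10 per direction, at least 20 CPM), or the lowest unadjusted p where none passed, and the 4 highest-expressed members of each list. Further list genes were named after their values were seen. Neutrophils were barcodes with at least 10 UMIs of Retnlg, Csf3r and Cxcr2 together, and B cells those with at least 3 of Cd79a and Cd79b and no Csf1r. Mx1 and Clec7a of the lists were not analysed here, nor Aldoa, whose symbol occurs on more than 1 row. Some further list genes are counted but not reported here by name. The tests were checked on simulated counts. The 2 planned interaction comparisons, with dividing and with Arg1-high cells, were not run because a library held 13 and 7 such cells; comparisons with nonclassical monocytes and neutrophils were added after the cell numbers were known.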

Additional observations from a re-analysis of the deposited data

How the results depend on the processing

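The counts of genes called between treatments were 0 with DESeq2, library size alone, upper quartile scaling, stricter or looser selection (Ly6c2 at least 4, Csf1r at least 1), marked doublets removed, the selection on thinned barcodes and members with other cells' UMIs left out. With no filter beyond 1 count 221 genes were called, and leaving out 1 library gave 5 to 59. A fit with the replicate number as a block called 0; same-numbered libraries deviated together with a correlation of 0.121 over only 2 pairs, so the numbers were not taken to pair them. The members' share among barcodes with at least 2 Csf1r UMIs differed by 11.1 points between groups, against 0.157 points among all kept barcodes. Leaving out 1 library moved the latter from -2.24 to 2.55 points. Against nonclassical monocytes 23 genes were called with no filter, and 0 to 59 without 1 library; against neutrophils, 2 to 1234. In the Chil3 split 208 genes were called at 3000 UMIs, 19 with DESeq2, 82 without members holding other cells' UMIs (an alternative chosen after seeing the data) and 46 to 119 without 1 library, and S100a9 turned to -0.11 with marked doublets removed. In the class II split the numbers were 63 with DESeq2, 122 without those members and 103 to 256 without 1 library. Over all alternatives, single named genes lost their call 86 times in the Chil3 split and 46 times in the class II split. A lone library of a group was assumed to vary like the other group. The cause of these differences was not tested.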
